A study of Mus musculus with 2 samples.

Results

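The 9 genes described here act in the adhesion of leukocytes and platelets to the vessel wall. They were *Sele*, *Selp*, *Selplg*, *Icam1*, *Icam2*, *Vcam1*, *Pecam1*, *Ackr1* and *Vwf*, taken by symbol from the gene list shared by both count matrices, as 9 of its 33696 genes. The tissue was the suprarenal abdominal aorta of male C57BL/6J mice aged 5 months. The Control group received saline. The AngII+HS group was given buprenorphine for analgesia, then angiotensin II (AngII) at 1500 ng/kg/min from a subcutaneous pump together with drinking water holding 0.9% NaCl and 0.2% KCl (HS, high salt), a protocol that produces aneurysms of the abdominal aorta. Both groups were sampled at 28 days. The aortas of 5 mice were pooled for each group according to the series design, while the protocol in the labels speaks of 1 control mouse and 2 treated mice. Each group gave 1 droplet library, and transcripts were counted by unique molecular identifiers (UMIs).

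The capture of a leukocyte by a vessel runs in steps that these genes serve. The selectins *Sele* (E-selectin) and *Selp* (P-selectin) on endothelium hold leukocytes loosely so that they roll, and *Selplg* (PSGL-1) is the main selectin ligand on the leukocytes. *Icam1*, *Icam2* and *Vcam1* encode immunoglobulin-type proteins that bind leukocyte integrins for firm arrest, and *Pecam1* (CD31) lies at the junctions between endothelial cells, where leukocytes pass through. *Ackr1* encodes an atypical receptor that carries chemokines across venular endothelium, and *Vwf* encodes von Willebrand factor, which binds platelets and is stored with P-selectin in the Weibel-Palade bodies of endothelial cells. Inflammatory cytokines are known to induce *Sele*, *Icam1* and *Vcam1* through NF-kappaB, and venules are the usual site of the selectins and *Ackr1*.

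On GRCm39, with gene coordinates from GENCODE, *Sele* (chr1:163867401-163886055, plus strand, 14 exons in its canonical transcript) and *Selp* (chr1:163942833-163977595, plus strand, 16 exons) lay 56.8 kb apart. *Ackr1* (chr1:173159453-173161317, minus strand, 2 exons) was on the same chromosome. *Icam2* (chr11:106263312-106278943, 4 exons) and *Pecam1* (chr11:106543689-106641454, 16 exons) lay 265 kb apart on the minus strand. *Icam1* was at chr9:20926672-20940113 (plus strand, 7 exons) and *Vcam1* at chr3:115903598-115923355 (minus strand, 9 exons). *Selplg* was at chr5:113956597-113970705 (minus strand, 2 exons) and *Vwf* at chr6:125523737-125663642 (plus strand, 52 exons).

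The 250 bases before the start of transcription are shown for *Sele* and *Ackr1*, because their levels in vascular endothelium were at least 2-fold higher in the AngII+HS library, as described further on. They are RefSeq sequences of GRCm38.p6, read 5′ to 3′ on the strand of the gene, at chr1:164047984-164048233 (plus strand) and chr1:173333504-173333753 (minus strand). Promoter sequences were at hand for *Sele*, *Selp*, *Icam1* and *Ackr1*, 4 of the 9 members. Capitals mark the letters TATAAA, the core of the TATA box, and CAGGAAG, a form of the site bound by ETS factors, searched on both strands.
Sele promoter: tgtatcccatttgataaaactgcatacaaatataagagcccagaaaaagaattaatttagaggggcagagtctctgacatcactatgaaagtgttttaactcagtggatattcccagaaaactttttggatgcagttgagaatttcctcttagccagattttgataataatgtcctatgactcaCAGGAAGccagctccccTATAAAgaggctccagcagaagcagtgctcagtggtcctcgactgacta
Ackr1 promoter: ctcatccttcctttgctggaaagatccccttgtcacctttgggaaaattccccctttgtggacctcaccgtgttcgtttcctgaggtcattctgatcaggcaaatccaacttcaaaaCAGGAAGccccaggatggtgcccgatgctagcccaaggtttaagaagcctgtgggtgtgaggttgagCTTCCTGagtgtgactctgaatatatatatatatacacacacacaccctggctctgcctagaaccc
In *Sele*, TATAAA began 49 bases and CAGGAAG 66 bases before the start. In *Ackr1*, CAGGAAG stood on the sense strand from 133 bases and on the antisense strand from 66 bases before the start. TATAAA occurred in 12.4% and CAGGAAG in 10.8% of the 32851 promoters of the same length. AGATAA, a form of the GATA site present in 9.99% of promoters, had no match in the 4 windows, and neither TATAAA nor CAGGAAG matched in *Selp* or *Icam1*. The NF-kappaB consensus was searched only as GGGRNWYYCC (R is A or G, W is A or T, Y is C or T, N is any base). This strict form was present in 3.90% of promoters and had no match in the 4 windows. Looser forms were not searched, so the lack of a match does not show that these promoters lack NF-kappaB sites. These matches describe letters only, and binding was not measured.

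The Control matrix held 11448 barcodes with 86618995 UMIs, and the AngII+HS matrix held 24804 barcodes with 117146856 UMIs. After filtering and removal of likely doublets, 10269 and 19734 cells remained, with medians of 7274 and 3066 UMIs per cell. The barcode list recorded with each library had as many entries as the matrix of the other library, so the lists were not used, and 67 barcodes occurred in both lists. Each matrix was assigned to the library GEO records it for, and a swap of the matrices would reverse every direction given here. Cell types were named from marker lists that hold no member, and the members were left out of the clustering. Markers of neutrophils, which are abundant in the AngII+HS library, summed to between 90.6 and 291 counts per 1000000 UMIs (CPM) in every other AngII+HS cell type examined and to between 6.55 and 47.7 CPM in the Control ones, so that low levels of leukocyte genes in other cells were read with care.

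Vascular endothelial cells (VECs) numbered 836 in the Control and 1204 in the AngII+HS library, and all 9 of their markers were detected in both. The VECs fell into arterial-like cells (487 Control and 389 AngII+HS), capillary-like cells (146 and 440) and venous-like cells (96 and 259). The summed level of the venous markers in venous-like cells was 5094 CPM (Control) and 3812 CPM (AngII+HS), while arterial-like cells held 2962 and 3304 CPM, so the venous name rests on a modest excess in the AngII+HS library. Its leading genes were *Csf3*, *Mctp1*, *Tll1* and *Ackr1*, none of which is on the venous list. A further cluster of 67 Control and 88 AngII+HS VECs led by *Adarb2* and *Lbp* had a high venous score but stayed unnamed, since a monocyte marker was among its leading genes. The venous markers summed to 9728 CPM (Control) and 7889 CPM (AngII+HS) in this cluster, more than in venous-like cells. Levels in venous-like cells therefore do not stand for all VECs with venous markers. A finer clustering split the venous-like cells into a part led by *Olr1* and *Mctp1* (93 and 136 cells) and a part led by *Akr1b8* and *Piezo2* (2 and 118 cells), which came almost entirely from the AngII+HS library and had a median of 10205 UMIs per cell. At that finer level neither was venous-like, since the former stayed unnamed with the lymphatic marker *Prox1* among its leading genes and the latter scored as capillary-like by a narrow margin (a marker score of 0.42, and 0.14 for the venous list), with the cell cycle genes *Cdk1* and *Mcm5* among its leading genes. Levels of *Sele*, *Selp*, *Icam1*, *Vcam1*, *Ackr1* and *Vwf* in venous-like cells are therefore also given for the part led by *Olr1* and *Mctp1*. The capillary-like cells split likewise, into a part led by *Inhbb* and *Sema7a* (11 Control and 279 AngII+HS cells) and a part led by *Timp4* and *Tmem182* (125 and 134), so they came mostly from different clusters in the 2 libraries. Lymphatic endothelial cells (LECs) numbered 138 and 155, vascular smooth muscle cells (VSMCs) 5463 and 888, fibroblasts 2609 and 4720, neutrophils 99 and 4657, and T and B cells 233 and 2113.

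Levels are UMIs added up over all cells of a type and scaled to CPM. With 1 library per group there was no spread between mice and no test was possible. The 95% intervals are exact and cover counting error only, and ratios are AngII+HS over Control on the log2 scale. Fewer UMIs of a gene in a cell type can come from fewer expressing cells or from less RNA per cell, so shares of cells with a UMI are given beside the levels.

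VECs held most UMIs of 5 members in both libraries. These cells had 59.6% (Control) and 82.8% (AngII+HS) of the *Sele* UMIs, 81.6% and 90.9% of *Selp*, 88.9% and 74.9% of *Icam2*, 71.7% and 75.4% of *Pecam1*, and 90.6% and 90.8% of *Vwf*. The other members had their UMIs elsewhere in at least 1 library. VECs held 43.1% of the *Vcam1* UMIs in the Control but 13.1% in the AngII+HS library, where fibroblasts held 74.1%. For *Icam1*, the share of VECs was 38.0% in the Control and 20.1% in the AngII+HS library, where fibroblasts held 39.8% and neutrophils 22.7%. For *Ackr1*, fibroblasts held 60.8% of the Control UMIs and VECs 78.5% of the AngII+HS UMIs. *Selplg* was the member that endothelium hardly used. VECs had 2.73% of its UMIs in the Control and 0.973% in the AngII+HS library, where neutrophils held 41.2% and macrophages 25.4%. In the Control, 24.1% of the *Selplg* UMIs came from VSMCs at a level of only 3.73 CPM, since VSMCs were the most numerous cells there.

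**Figure D1:**
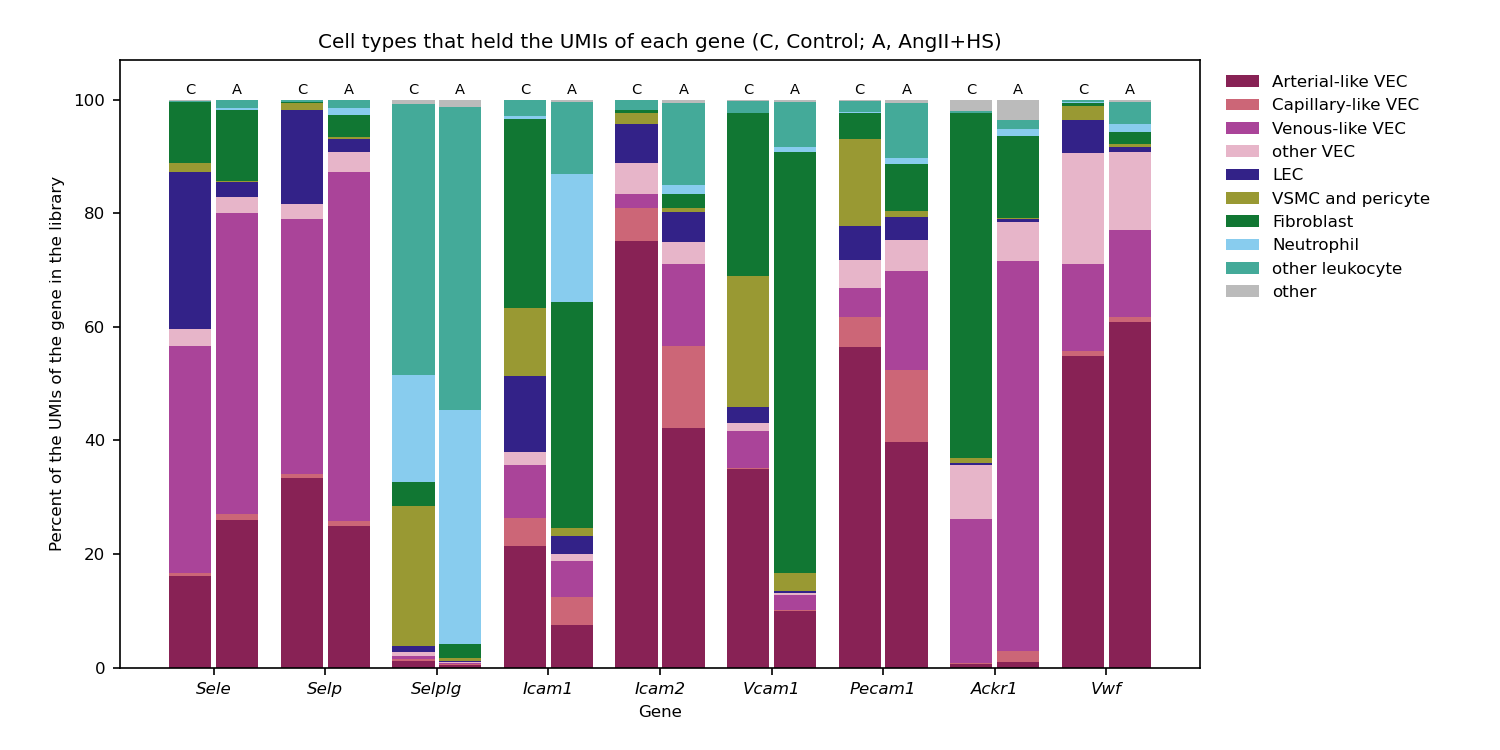
Share of the UMIs of each gene (percent of all its UMIs in the kept cells of a library) held by each cell type, with the Control bar at the left and the AngII+HS bar at the right of each pair. Endothelial colours fill most of the bars of *Sele*, *Selp*, *Icam2*, *Pecam1* and *Vwf*, while the fibroblast share of *Vcam1* is 28.6% in the Control and 74.1% in the AngII+HS library.

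Among the selectins, *Sele* was highest in venous-like VECs of both libraries. Its level there was 629 CPM (95% interval 567 to 695) in the Control and 556 CPM (524 to 589) in the AngII+HS library, a log2 ratio of -0.18 (-0.35 to -0.01). Arterial-like VECs held 58.3 CPM (49.5 to 68.3) in the Control and 262 CPM (241 to 285) in the AngII+HS library, a log2 ratio of 2.17 (1.91 to 2.44). The level in venous-like cells was thus 10.8 times that in arterial-like cells in the Control and 2.12 times in the AngII+HS library. Capillary-like VECs had little *Sele*, with 7.58 CPM from 5 UMIs and 16.4 CPM from 25 UMIs, and LECs are described further on. The cluster led by *Adarb2* and *Lbp*, whose venous markers summed higher than those of venous-like cells, held only 93.0 and 116 CPM. Fibroblasts held 10.6 and 9.48 CPM. Over all VECs, *Sele* was 131 CPM (121 to 143) in the Control and 287 CPM (274 to 300) in the AngII+HS library, a log2 ratio of 1.13 (0.99 to 1.26).

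Cells with a *Sele* UMI made up 6.98% of Control and 24.4% of AngII+HS arterial-like VECs, and 64.6% (54.2 to 74.1) and 69.9% (63.9 to 75.4) of venous-like VECs. Cells with at least 1000 UMIs were also thinned to 1000 UMIs each, and shallower cells were left out of all thinned shares. The share was then 2.94% and 12.8% in arterial-like cells and 33.3% and 35.4% in venous-like cells. T and B cells, which should lack *Sele*, had a UMI in 0.429% and 0.379% of cells, at median depths of 3788 and 2142 UMIs per cell against 4274 and 3952 in VECs. The arterial-like difference was not uniform. In arterial-like cells led by *Gadd45b* and *Cish*, which are genes of stress and cytokine response, *Sele* was 106 CPM in the Control and 502 CPM in the AngII+HS library, and in those led by *Ptprj* and *Klk10* it was 7.61 and 79.1 CPM. In those led by *Alpl* and *Dkk2* it was 80.1 CPM from 30 Control UMIs and 29.3 CPM from 8 AngII+HS UMIs. The venous-like cells led by *Olr1* and *Mctp1* alone held 656 and 991 CPM, a log2 ratio of 0.60 (0.41 to 0.78), so the near-equal levels of the whole venous-like group turned into a higher AngII+HS level when the cells led by *Akr1b8* and *Piezo2*, at 338 CPM, were set aside.

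*Selp* was also highest in venous-like VECs. There it was 5799 CPM (5609 to 5994) in the Control and 2835 CPM (2762 to 2909) in the AngII+HS library, a log2 ratio of -1.03 (-1.09 to -0.97). In the cells led by *Olr1* and *Mctp1* the levels were 6043 and 4931 CPM, a log2 ratio of -0.29 (-0.36 to -0.22), and the AngII+HS cells led by *Akr1b8* and *Piezo2* held 1765 CPM. The 2-fold lower level of *Selp* in venous-like cells therefore did not hold without the latter cells. Arterial-like VECs held 991 CPM (953 to 1030) and 1105 CPM (1061 to 1151), and the share with a *Selp* UMI was 58.5% in the Control and 71.5% in the AngII+HS library, or 29.4% and 44.1% after thinning. The share in T and B cells was 1.72% and 1.23%. The cluster led by *Adarb2* and *Lbp* held 640 and 979 CPM, below the arterial-like levels despite its higher sum of venous markers. Capillary-like VECs were low, at 90.9 and 61.7 CPM, and 56 of their 60 Control UMIs lay in the 11 cells led by *Inhbb* and *Sema7a*. Over all VECs the level was nearly the same in both libraries, at 1478 and 1382 CPM.

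Both selectins were present in LECs and lower there in the AngII+HS library. *Selp* was 1053 CPM (997 to 1112) in the Control and 238 CPM (206 to 273) in the AngII+HS library, a log2 ratio of -2.15 (-2.37 to -1.93). *Sele* was 214 and 67.1 CPM, a log2 ratio of -1.67 (-2.11 to -1.25). A *Selp* UMI was found in 29.7% of Control and 23.2% of AngII+HS LECs, and in 17.6% and 7.59% after thinning to 1000 UMIs. Outside endothelium, *Selp* was 2.05 CPM in Control and 13.2 CPM in AngII+HS fibroblasts, while T and B cells held 4.13 and 5.53 CPM. The AngII+HS fibroblasts led by *Prg4* and *Mmp13* held 78.3 CPM of *Selp* (67.2 to 90.6), with a UMI in 20.4% of them. No Control cell was in their cluster.

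*Selplg*, the leukocyte ligand of the selectins, was highest in neutrophils. Its level there was 585 CPM (498 to 684) from 99 Control cells and 368 CPM (354 to 384) from the AngII+HS cells, a log2 ratio of -0.67 (-0.90 to -0.43). A UMI was found in 71.7% and 35.2% of neutrophils, at median depths of 2739 and 1266 UMIs per cell, and in 38.1% and 28.9% of them after thinning. Without integration the neutrophils of the libraries came mostly from different clusters, as described with *Icam1*, and the part of this in the ratio was not tested. T cells held 309 and 295 CPM, dendritic cells 165 and 220 CPM, macrophages 76.7 and 71.5 CPM, and B cells 44.1 and 35.5 CPM. Among macrophages, those led by *Arg1* and *Ccl24* had 136 CPM in the Control, from 40 cells, and 52.3 CPM in the AngII+HS library. Their cluster scored higher for the monocyte list (4.95) than for the macrophage list (4.31). VECs held 5.31 and 8.72 CPM, close to the 3.73 and 3.09 CPM of VSMCs, which should lack the gene, and a *Selplg* UMI was found in 2.39% and 3.99% of VECs against 3.28% and 2.03% of VSMCs, the latter at median depths of 9699 and 6988 UMIs per cell. At this background no level in endothelium can be read from the counts.

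**Figure D2:**
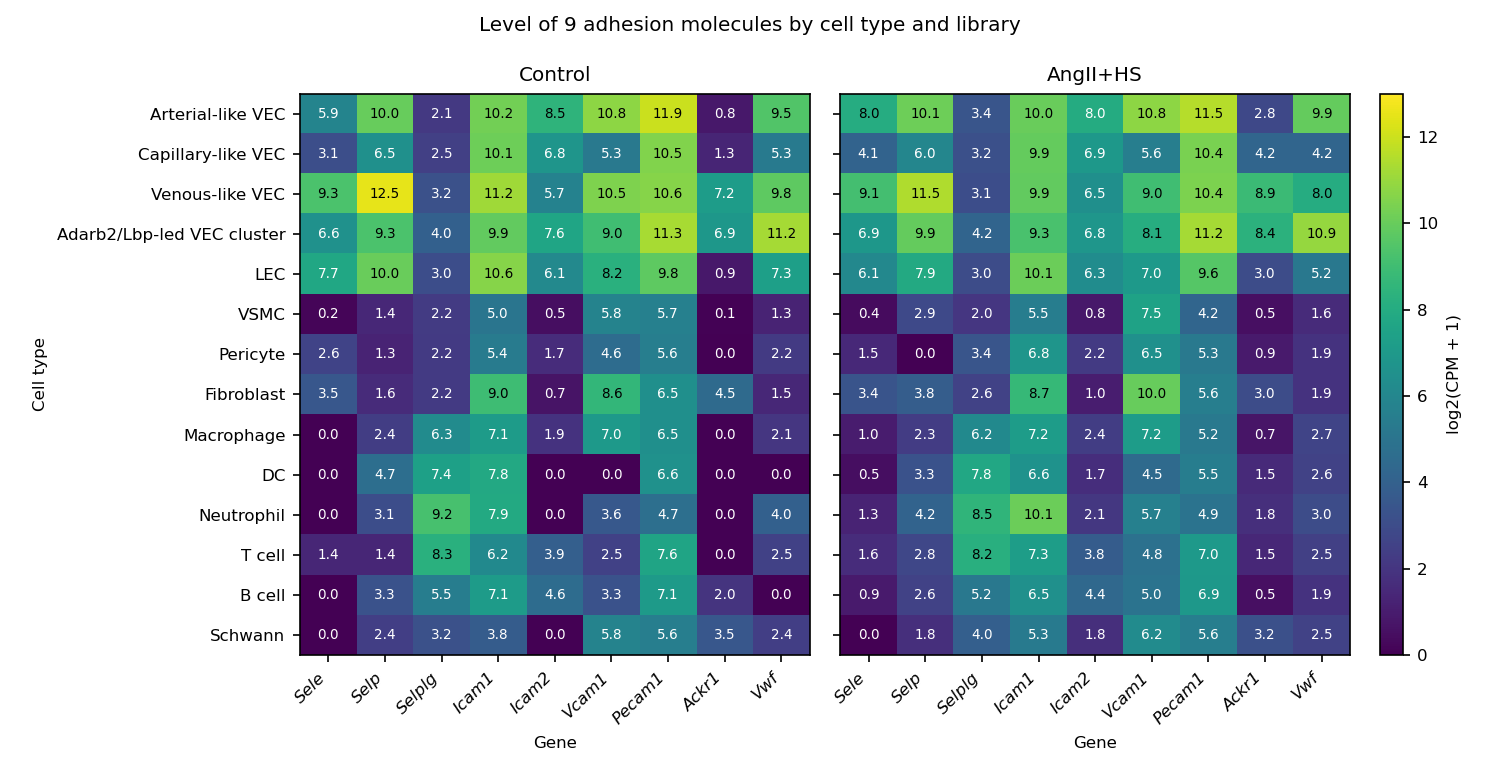
Level of each gene (columns) in each cell type (rows), as log2(CPM + 1), in the Control (left) and the AngII+HS library (right). The brightest field of *Selp* is in venous-like VECs of both libraries, the brightest field of *Selplg* is in neutrophils of both libraries, and the *Icam1* field of neutrophils, from 239 CPM in the Control and 1088 CPM in the AngII+HS library, is brighter in the right panel.

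Of the integrin ligands, *Icam1* was present in all endothelial groups and in many other cells. In venous-like VECs it was 2277 CPM (2159 to 2400) in the Control and 942 CPM (900 to 985) in the AngII+HS library, a log2 ratio of -1.27 (-1.37 to -1.17). In the cells led by *Olr1* and *Mctp1* it was 2320 and 1355 CPM, a log2 ratio of -0.78 (-0.90 to -0.65), which was lower in the AngII+HS library but by less than 2-fold. Arterial-like and capillary-like VECs were close between libraries, with 1197 and 1048 CPM in the former and 1124 and 965 CPM in the latter. Venous-like cells had the highest level of the 3 subtypes in the Control, and in the AngII+HS library the intervals of the leading subtypes overlapped. LECs held 1601 and 1085 CPM, and fibroblasts 504 (490 to 518) and 422 CPM (414 to 429). The share of VECs with a UMI was 68.1% and 69.9%.

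*Icam1* also differed between the libraries in neutrophils. Their level was 239 CPM (185 to 305) from 65 UMIs in 99 Control cells and 1088 CPM (1062 to 1114) from 6757 UMIs in the AngII+HS library, a log2 ratio of 2.18 (1.83 to 2.56). The share of neutrophils with an *Icam1* UMI was 31.3% (22.4 to 41.4) in the Control and 55.8% (54.4 to 57.2) in the AngII+HS library, and it was 19.6% and 50.9% after thinning, although the AngII+HS cells were shallower. Over T and B cells *Icam1* was 94.0 and 126 CPM, with a UMI in 6.09% and 11.7% of thinned cells. The AngII+HS level of neutrophils was close to the 1048 CPM of arterial-like VECs. When the libraries were merged without integration, a neutrophil cluster led by *Ngp* and *Retnlg* held 77 Control and 13 AngII+HS cells. Another, led by *S100a9* and *S100a8*, held 22 Control and 4435 AngII+HS cells. The neutrophils of the libraries thus came mostly from different clusters there, and the part of this in the *Icam1* ratio was not tested.

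*Icam2*, which endothelium expresses without stimulation, was highest in arterial-like VECs. There it was 352 CPM (330 to 376) in the Control and 250 CPM (230 to 273) in the AngII+HS library, a log2 ratio of -0.49 (-0.65 to -0.34). The difference lay in the cells led by *Ptprj* and *Klk10*, with 520 and 279 CPM and a log2 ratio of -0.90 (-1.12 to -0.69). In the other arterial-like clusters the intervals held 0, with 182 and 201 CPM in cells led by *Gadd45b* and *Cish* and 315 and 330 CPM in cells led by *Alpl* and *Dkk2*. Capillary-like VECs held 109 and 120 CPM. Venous-like VECs were the lowest of the 3 named subtypes in both libraries, with 52.7 CPM (36.0 to 74.4) and 88.8 CPM (76.3 to 103). Over all VECs *Icam2* was 254 and 152 CPM, a log2 ratio of -0.74 (-0.87 to -0.61). The mean of the 3 subtype log2 ratios was 0.13, beside -0.49 in arterial-like, 0.14 in capillary-like and 0.75 in venous-like cells. The last rested on 32 Control UMIs, and this mean is not a ratio of levels at an equal mix of subtypes. Arterial-like cells were 58.3% of VECs in the Control and 32.3% in the AngII+HS library. *Icam2* was detected in 56.2% and 42.9% of VECs, against 0.384% and 0.563% of VSMCs.

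*Vcam1* was high in arterial-like VECs, and its level over all of them did not differ beyond counting error. The levels were 1747 CPM (1697 to 1798) and 1792 CPM (1736 to 1850), a log2 ratio of 0.04 (-0.03 to 0.10). The arterial-like clusters went opposite ways. *Vcam1* was 2089 and 2819 CPM in cells led by *Gadd45b* and *Cish*, but 2149 and 822 CPM in cells led by *Alpl* and *Dkk2*, a log2 ratio of -1.39 (-1.61 to -1.17). In the largest cluster, led by *Ptprj* and *Klk10* (305 Control and 207 AngII+HS cells), it was also lower in the AngII+HS library, but by less. In venous-like VECs it was 1423 CPM (1329 to 1521) and 515 CPM (484 to 547), a log2 ratio of -1.47 (-1.60 to -1.33). The cells led by *Olr1* and *Mctp1* held 1473 and 988 CPM, a log2 ratio of -0.58 (-0.72 to -0.43), and those led by *Akr1b8* and *Piezo2* 272 CPM in the AngII+HS library. Capillary-like VECs held only 37.9 and 46.6 CPM. LECs held 299 and 125 CPM, a log2 ratio of -1.26 (-1.58 to -0.94).

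In the wall cells around the endothelium, *Vcam1* went the other way from venous-like VECs and LECs. Fibroblasts held 386 CPM (374 to 399) in the Control and 1009 CPM (997 to 1021) in the AngII+HS library, a log2 ratio of 1.38 (1.34 to 1.43). It was detected in 39.8% and 70.3% of fibroblasts, or 22.9% and 42.6% after thinning. The difference was widest in fibroblasts led by *Ptx3* and *Sfrp4*, with 147 and 999 CPM and a log2 ratio of 2.76 (2.65 to 2.88). Fibroblasts led by *Dio2* and *Fst* held 625 and 1025 CPM, those led by *Comp* and *Fmod* 502 and 861 CPM, and those led by *Igfbp6* and *F3* 478 and 933 CPM. A cluster led by *Prg4* and *Mmp13*, made of 167 AngII+HS cells and no Control cell, held 1500 CPM. The AngII+HS levels of the 4 shared clusters lay between 861 and 1025 CPM, while the Control levels ranged from 147 to 625 CPM. VSMCs held 55.5 CPM (53.5 to 57.5) and 181 CPM (171 to 192), a log2 ratio of 1.71 (1.61 to 1.81). T and B cells, which should lack *Vcam1*, held 6.19 and 28.6 CPM and had a UMI in 2.58% and 6.44% of cells, and the part of free RNA was not tested. The summed level of the 7 fibroblast markers in VSMCs moved with it, from 2489 to 5295 CPM, and that of the 8 macrophage markers from 10.7 to 361 CPM. Their part in the VSMC difference was not tested. Macrophages held 128 and 144 CPM, and among them those led by *C1qa* and *C1qc* 153 and 243 CPM.

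**Figure D3:**
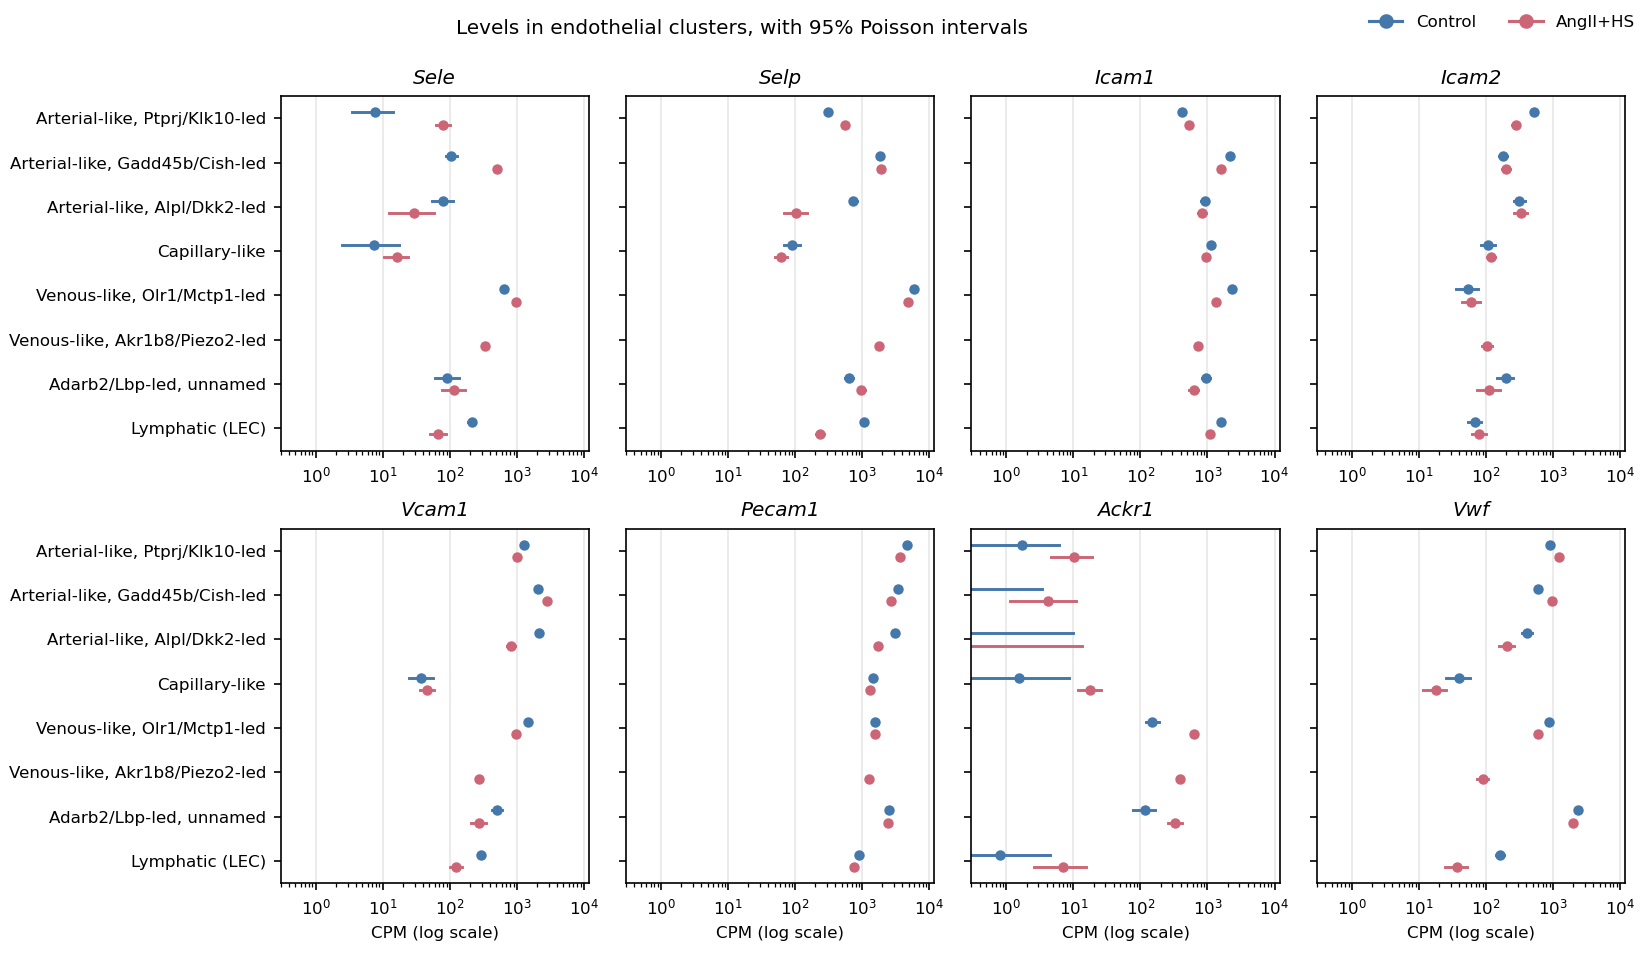
Level of 8 genes (CPM, log axis) in endothelial clusters with 20 or more cells in a library, with the Control in blue and the AngII+HS library in red. Points are levels from summed UMIs and bars are 95% Poisson intervals, and a bar without a point is a level of 0. In the *Ackr1* panel the points of venous-like cells and of the cluster led by *Adarb2* and *Lbp* lie far to the right of the arterial-like points, and in the *Vwf* panel that cluster lies at 2398 and 1962 CPM.

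*Pecam1*, the junctional protein, was highest in arterial-like VECs, at 3924 CPM (3848 to 4000) in the Control and 2983 CPM (2910 to 3058) in the AngII+HS library, a log2 ratio of -0.40 (-0.44 to -0.35). Each arterial-like cluster was lower in the AngII+HS library, with 4663 and 3631 CPM in cells led by *Ptprj* and *Klk10*, 3383 and 2735 CPM in cells led by *Gadd45b* and *Cish*, and 3153 and 1717 CPM in cells led by *Alpl* and *Dkk2*. Capillary-like VECs held 1462 and 1328 CPM and venous-like VECs 1581 and 1361 CPM. Over all VECs *Pecam1* was 3042 and 1938 CPM, a log2 ratio of -0.65 (-0.69 to -0.61), which came to -0.25 with the subtypes weighted alike. *Pecam1* was detected in nearly every VEC (98.1% and 94.5%). VSMCs, which should lack it, had a UMI in 23.0% and 9.23% of cells and levels of 50.5 and 17.8 CPM, a log2 ratio of -1.51 (-1.79 to -1.24). Fibroblasts held 88.8 and 47.0 CPM and macrophages 88.6 and 36.8 CPM. T cells, which are known to carry CD31, held 194 and 131 CPM.

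*Ackr1* was the member with the most restricted endothelial pattern. In venous-like VECs it was 145 CPM (116 to 179) in the Control and 463 CPM (434 to 494) in the AngII+HS library, a log2 ratio of 1.68 (1.36 to 2.01). The cluster led by *Adarb2* and *Lbp* held 115 CPM (78.3 to 164) and 328 CPM (258 to 410), a log2 ratio of 1.51 (0.89 to 2.16). Arterial-like VECs held 2 and 13 UMIs, or 0.757 and 6.13 CPM. Capillary-like VECs held 1 and 27 UMIs, a log2 ratio of 3.55 whose counting interval ran from 0.95 to 8.90. The venous-like cells led by *Olr1* and *Mctp1* held 151 and 631 CPM, a log2 ratio of 2.06 (1.73 to 2.41), so the higher level did not rest on the cells led by *Akr1b8* and *Piezo2*, which held 383 CPM. *Ackr1* was detected in 26.0% (17.6 to 36.0) of Control and 51.7% (45.5 to 58.0) of AngII+HS venous-like VECs, and in 10.4% and 28.3% after thinning. In T and B cells it was detected in 0.429% and 0.284% of cells. Over all VECs *Ackr1* was 28.6 CPM (23.8 to 34.1) and 175 CPM (164 to 185), a log2 ratio of 2.61 (2.34 to 2.89). The mean of the 3 subtype log2 ratios was 2.47. In it the few UMIs of arterial-like and capillary-like cells counted as much as venous-like cells.

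Fibroblasts held *Ackr1* in the opposite direction, with 21.6 CPM (18.8 to 24.7) in the Control and 7.06 CPM (6.12 to 8.12) in the AngII+HS library, a log2 ratio of -1.61 (-1.90 to -1.32). Of the 211 Control UMIs, 207 lay in the cluster led by *Ptx3* and *Sfrp4*, at 48.1 CPM, and this cluster held 15.5 CPM in the AngII+HS library. The same cluster had the widest *Vcam1* difference among fibroblasts. The share of fibroblasts with a UMI was 5.06% and 3.28%.

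*Vwf* was highest in the cluster led by *Adarb2* and *Lbp*, with 2398 CPM (2217 to 2591) in the Control and 1962 CPM (1786 to 2151) in the AngII+HS library and a UMI in 97.0% and 92.0% of its cells. Among the named subtypes, arterial-like VECs held 707 CPM (675 to 739) and 986 CPM (944 to 1029), a log2 ratio of 0.48 (0.39 to 0.57). Venous-like VECs held 866 CPM (794 to 943) and 260 CPM (239 to 284), a log2 ratio of -1.73 (-1.91 to -1.56). Without the cells led by *Akr1b8* and *Piezo2*, at 89.2 CPM, the venous-like levels were 867 and 604 CPM, a log2 ratio of -0.52 (-0.71 to -0.33). The order of arterial-like and venous-like cells was thus reversed between the libraries, and in cells led by *Olr1* and *Mctp1* the AngII+HS level was still below the arterial-like level. Capillary-like VECs held 39.4 and 17.7 CPM, and LECs 162 and 36.5 CPM, a log2 ratio of -2.15 (-2.74 to -1.60). The level in T and B cells was 3.10 and 3.75 CPM, with a UMI in 0.429% and 0.899% of cells. Since platelets also carry *Vwf* and *Selp*, platelet markers were counted, and they summed to 4.62 CPM in Control and 10.2 CPM in AngII+HS VECs, with *Gp1bb* and *Treml1* at 0 in the latter. In LECs of the AngII+HS library, where *Vwf* and *Selp* were lower, they summed to 98.9 CPM, with *Gp9*, *Gp1bb* and *Treml1* at 0.

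**Figure D4:**
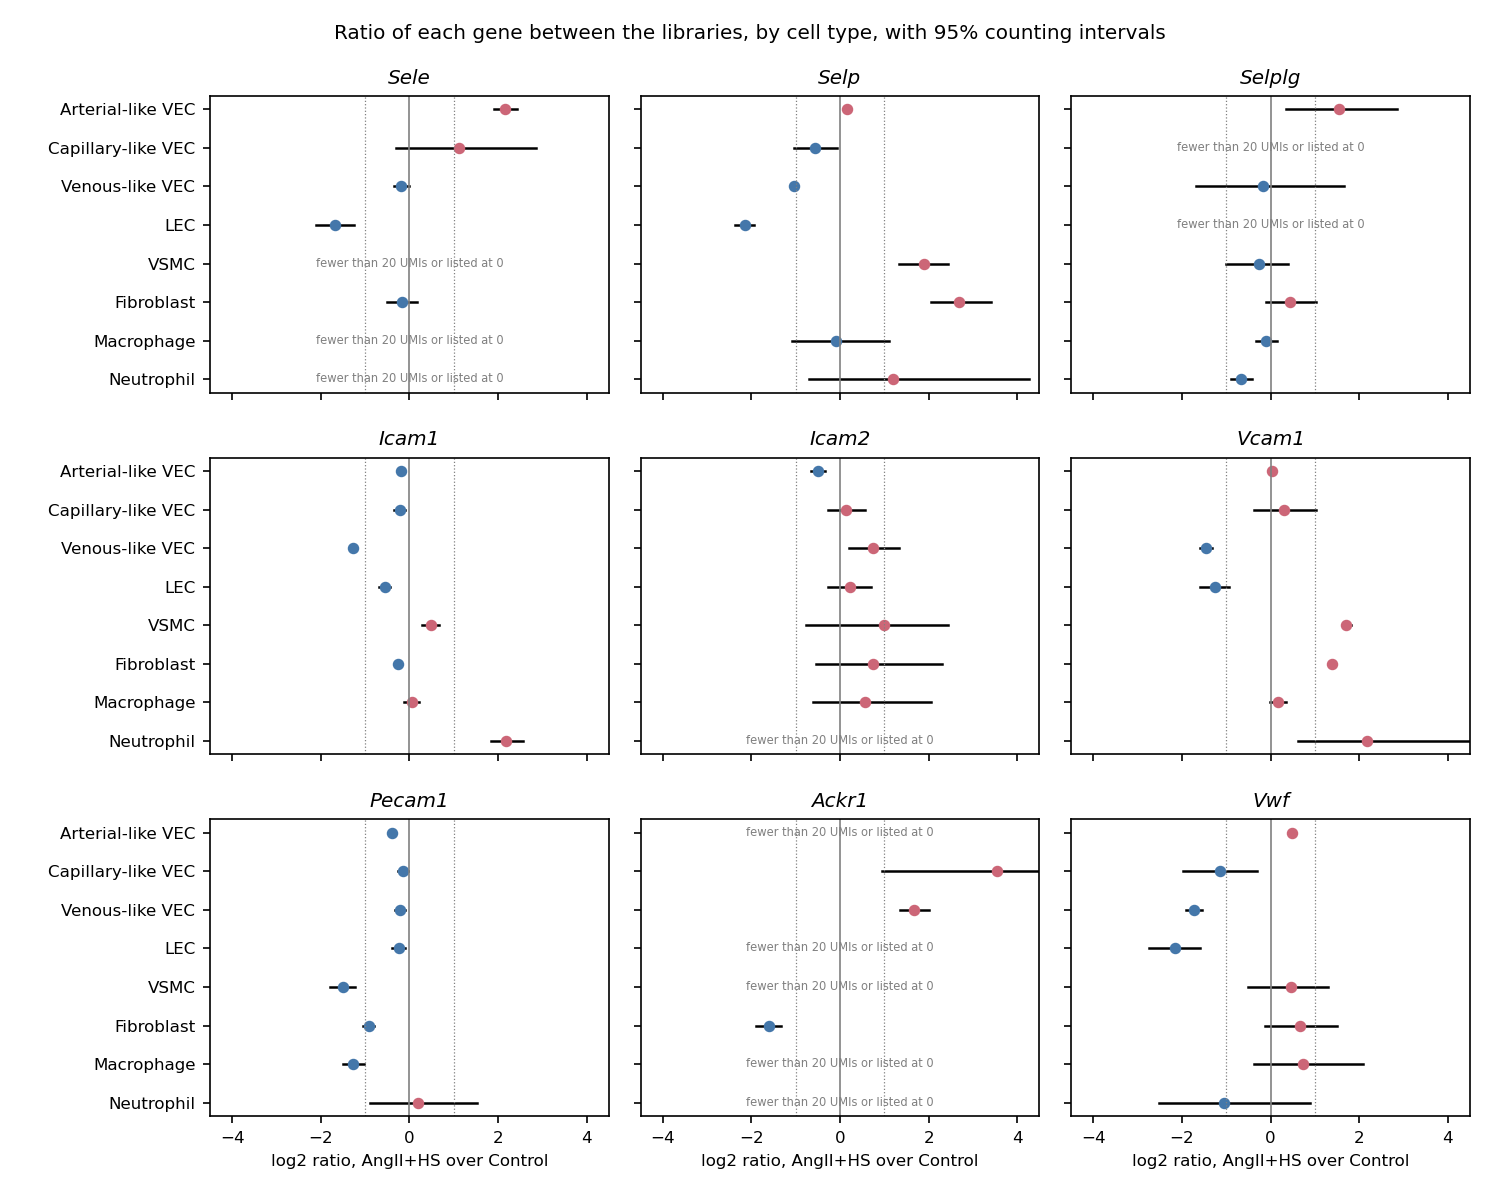
Log2 ratio of the level in the AngII+HS over the Control library for each gene (panels) in 8 cell types (rows), with red points above 0 and blue points below 0. Bars are exact 95% counting intervals, some of which run past the axis, and dotted lines mark 2-fold. *Vcam1* lies at -1.47 in venous-like VECs and at 1.38 in fibroblasts, and *Sele* at 2.17 in arterial-like VECs and -1.67 in LECs.

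Counted by cell type, 2 members (*Sele* and *Ackr1*) were at least 2-fold higher in AngII+HS VECs, where 8.22% of the 13153 genes with at least 20 UMIs were, and none was 2-fold lower, where 5.98% of genes were. All 9 members had at least 20 UMIs there. Their median log2 ratio was -0.43, beside 0.04 over all genes. In arterial-like VECs, 8 members reached 20 UMIs. *Sele* and *Selplg* were 2-fold higher (6.78% of genes) and none was lower (4.75%), and *Selplg* reached the limit through its 21 AngII+HS UMIs. In capillary-like VECs, *Sele* and *Ackr1* of 8 members were 2-fold higher (9.42% of genes) and *Vwf* was lower (4.7%), and both of the higher ones reached the limit through the AngII+HS library. In venous-like VECs, *Selp*, *Icam1*, *Vcam1* and *Vwf* of 9 members were 2-fold lower (7.98% of genes) and *Ackr1* was higher (22.4%). In LECs, *Sele*, *Selp*, *Vcam1* and *Vwf* of 7 members were 2-fold lower (4.24%) and none was higher (7.87%), with a median log2 ratio of -1.25 beside 0.11 over all genes. In fibroblasts, *Selp* and *Vcam1* of 9 members were 2-fold higher (7.81%) and *Ackr1* was lower (8.25%). These fibroblasts included 167 AngII+HS cells led by *Prg4* and *Mmp13*, a cluster with more *Selp* and no Control cell. The *Selp* ratio without them was not counted. None of the 4 venous-like members was 2-fold lower in the cells led by *Olr1* and *Mctp1*.

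A minority of single VECs carried several of the inducible members at once. UMIs of *Sele*, *Selp*, *Vcam1*, *Icam1* and *Ackr1* were counted in cells thinned to 1000 UMIs. Over all VECs, 3 or more of the 5 were found in 15.6% in the Control and 19.2% in the AngII+HS library. They were found in 51.0% of 96 venous-like VECs in the Control and in 41.3% of 254 in the AngII+HS library. All 5 were found in 3.12% and 5.91% of them. Venous-like VECs with none of the 5 came to 3.12% in the Control and 16.1% in the AngII+HS library. The venous-like group held 2 Control and 118 AngII+HS cells led by *Akr1b8* and *Piezo2*. Joint detection was not counted without them, and their part in these shares and in those of gene pairs was not tested. In arterial-like VECs the share with 3 or more was 13.6% in the Control and 25.4% in the AngII+HS library, and in capillary-like VECs it was 1.41% and 0.517%. LECs had 9.56% and 1.38%, fibroblasts 0.0465% and 0.417%, and no thinned T or B cell reached 3.

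Cells with a *Sele* UMI mostly had a *Selp* UMI as well. Over all thinned VECs, *Selp* was also found in 80.4% of 51 cells with *Sele* in the Control and in 79.2% of 154 in the AngII+HS library, against 28.4% and 26.2% of the cells without *Sele*. Within arterial-like VECs of the AngII+HS library, *Selp* was found in 68.8% of 48 cells with *Sele* and in 40.5% of those without. *Vcam1* accompanied *Sele* in 78.6% of 14 Control and 83.3% of 48 AngII+HS arterial-like cells, against 57.2% and 54.9% of the others. In AngII+HS venous-like VECs, *Ackr1* was found in 38.6% of the 166 cells with *Selp* and 9.1% of those without, and in Control venous-like VECs in 10.8% of 83 cells and 7.69% of the rest. Cells of 1 library are not replicates, and these shares describe the cells sampled.

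**Figure D5:**
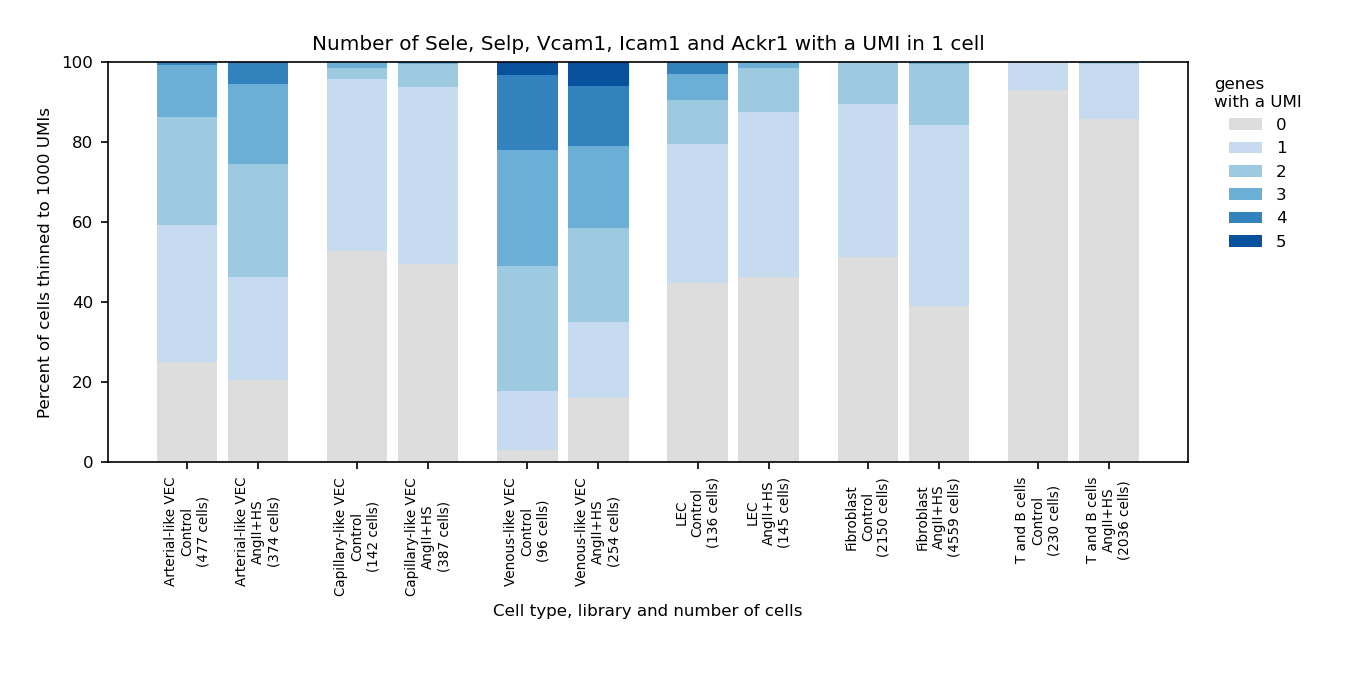
Percent of cells with UMIs of 0 to 5 of the genes *Sele*, *Selp*, *Vcam1*, *Icam1* and *Ackr1*, by cell type and library. Cells with at least 1000 UMIs were thinned to 1000 UMIs each, and shallower cells were left out. The dark part for 3 or more genes is tallest in venous-like VECs, at 51.0% in the Control and 41.3% in the AngII+HS library.

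Over 33 points, each a cell type or VEC cluster in 1 library with at least 20 cells, many of the endothelial members varied together. Most cell types gave a point in each library. As a description over points that share libraries, the Pearson correlation of log2(CPM + 1) was 0.92 between *Icam2* and *Pecam1*, 0.90 between *Sele* and *Selp* and 0.89 between *Selp* and *Vwf*. *Selplg* correlated negatively with each of the other 8, down to -0.63 with *Vcam1*. Among 14620 genes, the patterns most like *Sele* were those of *Plvap* (0.92), a protein of the diaphragms of fenestrated and venular endothelium, *Selp* (0.90) and *Ptprb* (0.89), a phosphatase of endothelial junctions. The angiopoietin co-receptor *Tie1* (0.90) was near *Selp*, and *Ptprb* (0.91), *Zfp57* (0.91) and *Enpp6* (0.90) were nearest to *Vwf*. *Itgb2* (0.91), the shared chain of the leukocyte integrins that bind ICAM-1, *Cotl1* (0.91) and *Rac2* (0.90) were nearest to *Selplg*. *Ccm2l* (0.96), *Nos3* (0.94), which encodes endothelial nitric oxide synthase, and *Rasgrf2* (0.94) were nearest to *Pecam1*, and *S1pr1* (0.93), *Ccm2l* (0.92) and *Pecam1* to *Icam2*. The nearest genes to *Icam1* (*Slfn5*, *Clec1a* and *Rab11a*, 0.85 to 0.84) and *Ackr1* (*Lhx6*, *Tll1* and *Plvap*, 0.82 to 0.76) were less close.

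Partner genes were counted in the same way, but over all VECs only. Arterial-like cells were 58.3% of VECs in the Control and 32.3% in the AngII+HS library, and capillary-like cells 17.5% and 36.5%. The cells led by *Akr1b8* and *Piezo2* held 20969 of the 4330248 UMIs of Control VECs and 1356742 of 6190113 in the AngII+HS library. The part of these differences in mix in the ratios of partner genes was not tested. Of 9 integrin subunits that serve as counter-receptors, 8 reached 20 UMIs, 3 were at least 2-fold higher and 1 was lower in the AngII+HS library, where 8.22% of all genes tested in VECs were higher and 5.98% lower. Of the 3, *Itgb2* (1 and 36 UMIs) and *Itga4* (5 and 16 UMIs), named here after their values were seen, reached 20 UMIs over both libraries only with those of the AngII+HS library, and the interval of *Itga4* held 0. T and B cells held 71.2 and 79.3 CPM of *Itgb2*, against 0.231 and 5.82 CPM in VECs. *Itgav*, the alpha-V subunit of matrix receptors, was 130 CPM in the Control and 296 CPM in the AngII+HS library, a log2 ratio of 1.19 (1.05 to 1.33), and *Itgb1* was 660 and 668 CPM. T and B cells held 214 and 310 CPM of *Itgav*. Of 16 selectin ligands and enzymes that make them, 11 reached 20 UMIs, 3 were higher and 1 was lower. Of these 3, *Spn* (9 and 33 UMIs) and *Chst2* (15 and 88 UMIs), also named after their values were seen, reached 20 UMIs only with the AngII+HS library. *Cd24a*, a P-selectin ligand, was 323 and 124 CPM, a log2 ratio of -1.39 (-1.52 to -1.26), and *Cd44*, which can bind E-selectin, was 25.9 and 56.2 CPM, a log2 ratio of 1.12 (0.81 to 1.44), beside 235 and 270 CPM in T and B cells. The sialomucins *Cd34* and *Podxl* were 244 and 326 CPM and 376 and 292 CPM.

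Of 18 other adhesion and transmigration genes of endothelium, 15 reached 20 UMIs, 1 was higher and 1 was lower. *Mcam* (CD146), an adhesion protein of endothelial and mural cells, was 89.4 and 210 CPM, a log2 ratio of 1.23. *Cdh5* (VE-cadherin) was 1176 and 1279 CPM and *Esam* 496 and 563 CPM. The intervals of 6 of the 15 lay below 0 and those of 6 above it. Of 10 genes of Weibel-Palade bodies and VWF handling, 9 reached 20 UMIs, 1 was higher and 2 were lower. *Angpt2*, a stored antagonist of the receptor Tie2, was 16.2 and 74.0 CPM, a log2 ratio of 2.19 (1.83 to 2.58). *Myrip*, which anchors these bodies to actin, was 198 and 47.5 CPM, a log2 ratio of -2.06 (-2.26 to -1.87), and *Cd63*, a protein of their membrane, was 218 and 324 CPM. All 11 genes of NF-kappaB feedback reached 20 UMIs, 1 was 2-fold higher and none was lower. This was *Tnfaip3* (A20), an inhibitor of NF-kappaB, at 109 and 239 CPM, a log2 ratio of 1.13 (0.98 to 1.28), beside 527 and 683 CPM in T and B cells. *Nfkbia*, the inhibitor of NF-kappaB that it induces first, was 2377 and 2433 CPM, and *Nfkb1* 502 and 573 CPM.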

How the data were processed

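The deposited counts are raw UMI counts per gene and cell barcode, which the authors made with Cell Ranger (version 8.0.1 in the file header, another version in the methods) on GRCm39 according to the methods, while the labels list mm10. The deposited counts were not normalized, and the smallest barcodes held 501 and 500 UMIs. Cells with at least 500 UMIs, 200 genes and under 20% mitochondrial UMIs were kept (11288 and 24560), and the cells with the highest Scrublet scores (scanpy 1.11.5) were removed as doublets at 0.8% per 1000 cells (1019 and 4826), which treats each library as a single channel. Libraries were integrated with Seurat 5.3.0 (R 4.3.3) on 2000 variable genes without the members and 30 components, and clustered at resolution 0.8. VECs were clustered again at resolution 0.4 with 20 components, and at 0.8 for the finer split. A cluster took the name of the list with the highest score where at least 3 markers were detected, the score was at least 2 (not asked of VEC subtypes) and its 10 leading genes held either no marker of another type or more of its own. The pericytes and the macrophages led by *Arg1* and *Ccl24* took the list scored next, within 1 log2 unit. The reason was that their leading genes held more of its markers. This rule was settled after the clusters had been seen. The members, partner lists and named genes (all members, the 2 highest genes of each partner list, those with at least 200 UMIs past 2-fold, and the 3 genes most alike, those of *Vcam1* not being reported here) were chosen with earlier results of these data known. Leading genes of clusters were named after their values were seen.

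For each library, UMIs were added up by cell type and expressed as CPM with exact Poisson intervals. Shares have exact binomial (Clopper-Pearson) intervals, and ratios exact conditional intervals, at 95%. Medians of ratios used 0.5 added UMIs, and correlations genes with at least 200 UMIs. Kept cells held 75294050 and 80581691 UMIs. No test or p-value was computed, since each group is 1 library. The ratio script was tested on simulated data. Alternatives were no doublet removal or double the number removed, a stricter filter (1000 UMIs, 500 genes, 10% mitochondrial), merging without integration, members kept for clustering, equal weight per cell, scaling without mitochondrial genes or by TMM (edgeR 4.0.16), the mean of the log2 ratios of the 3 named VEC subtypes, subtraction of the T and B cell level, thinning to 1000 UMIs and VEC resolution 0.8. The mean of the subtype ratios, with 0.5 UMIs added to each count, is not a ratio of levels at an equal mix of subtypes. Leaving out the cells led by *Akr1b8* and *Piezo2* or other clusters, and counting the cluster led by *Adarb2* and *Lbp* as venous-like, were added after the data were seen. Work was done in Python 3.11.15 with numpy 2.4.6, scipy 1.17.1, pandas 2.3.3 and matplotlib 3.10.9.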

Additional observations from a re-analysis of the deposited data

Results flagged for a closer look

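For 5 members, the log2 ratio went opposite ways in different cell types by at least 2-fold each, with both counting intervals beyond 2-fold. The rule was applied to the members only. The share of all genes that meet it was not counted, so the number does not set the members apart. *Sele* was -1.67 in LECs, where only 7 Control and 4 AngII+HS cells had a UMI after thinning, and 2.17 in arterial-like VECs. *Selp* was -2.15 in LECs and 2.69 in fibroblasts, where its levels were only 2.05 and 13.2 CPM. The AngII+HS fibroblasts included the cluster led by *Prg4* and *Mmp13*, which held more *Selp* and no Control cell. The *Selp* ratio without it was not counted. *Icam1* was -1.27 in venous-like VECs and 2.18 in neutrophils, which came mostly from different clusters in the libraries when these were merged without integration. *Vcam1* was -1.47 in venous-like VECs and 1.71 in VSMCs, where T and B cells of the same libraries also held more of it. *Ackr1* was -1.61 in fibroblasts and 1.68 in venous-like VECs. With 1 library per group, the difference between cell types was not tested. The ratios of *Icam1* and *Vcam1* in venous-like VECs were less than 2-fold without the cells led by *Akr1b8* and *Piezo2*.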

How the results depend on the processing

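The median log2 ratio of the 9 members in VECs, -0.43 as reported, stayed below 0 in every alternative that gave it and moved to -0.33 with no doublets removed, -0.24 with equal weight per cell, -0.25 with the mean of the 3 subtype ratios of each member and -0.22 without the cells led by *Akr1b8* and *Piezo2*. The number of members at least 2-fold higher, 2 as reported, was 1 (*Ackr1*) with the mean of the 3 subtype ratios. It was 3 with no doublets removed, where *Selplg* joined at 1.87. The mean for *Sele* was 0.997, just below 2-fold, beside 2.17 in arterial-like, 1.12 in capillary-like (5 and 25 UMIs) and -0.18 in venous-like VECs. No member was 2-fold lower in any alternative. *Sele*, *Selp* and *Ackr1* were highest in venous-like VECs of both libraries under every alternative with venous-like cells, joined by others to make 5 with equal weight per cell and 4 with no doublets removed or without the cells led by *Akr1b8* and *Piezo2*. That count was not run with the stricter filter or at VEC resolution 0.8, where no cluster was named venous-like. The share of all genes highest in venous-like cells was not counted. Venous-like cells also differed between alternatives, with 163 Control cells when no doublets were removed and 31 after merging without integration. *Ackr1* stayed past 2-fold in VECs in 12 of 12 alternatives (2.01 to 2.70) and *Sele* in 11 of 12 (0.997 to 1.23). *Icam2* ran from -0.99 to 0.13 and was above 0 only as the mean of the 3 subtype ratios, and the other members kept their sign. Scaling by TMM shifted all genes by -0.01. No paired analysis was possible because each group is 1 library. Depth limits what can be said of *Ackr1* outside venous-like cells and of *Selplg* in endothelium, where counts were few, and of neutrophils, of which the Control held 99.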

Other observations

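A small cluster that no marker list named, with 5 Control and 44 AngII+HS cells, was led by neuronal genes such as *Npy* and *Syt1*, which were named after their values were seen. It held 37 *Ackr1* UMIs in the AngII+HS library, or 57.9 CPM, beside 1.18 CPM in T and B cells and 463 CPM in venous-like VECs. The Control cells of this cluster held 1 UMI. Pericytes, the mural cells of small vessels, held 23.2 CPM of *Vcam1* in the Control and 90.1 CPM in the AngII+HS library, a log2 ratio of 1.96 (1.37 to 2.58), and 42.1 and 110 CPM of *Icam1*. Their cluster scored higher for the VSMC list (4.74) than for the pericyte list (3.86). B cells held 138 and 92.5 CPM and T cells 70.1 and 151 CPM of *Icam1*. In the capillary-like VECs led by *Timp4* and *Tmem182*, which both libraries held in like numbers (125 and 134 cells), *Icam1* was 1082 and 1186 CPM and *Pecam1* 1447 and 1436 CPM, and the intervals of both ratios held 0.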
